A study of Ovis aries with 40 samples.

Results

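The insulin-like growth factor (IGF) system was described in the LM muscle of 40 sheep through 9 of its genes, the ligands IGF1 and IGF2, the receptors IGF1R and IGF2R and the binding proteins IGFBP2, IGFBP3, IGFBP4, IGFBP5 and IGFBP6. A member was every probe set of the array whose only gene symbol was 1 of these names. All 9 genes had such a probe set, 18 in all, of the 13292 probe sets and 9155 genes with 1 symbol. The brightest probe set of a gene, by its mean over the 40 arrays, stood for the gene. A gene was called detected if this mean reached 61.8, the median of such means over all non-control probe sets. Of the 9 members 6 were detected, IGF1, IGF2, IGF2R, IGFBP3, IGFBP4 and IGFBP6, as were 6360 of all genes.

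The animals were Poll Dorset sheep grown under Australian industry conditions, and the longissimus muscle (LM) of the loin was taken at 78 weeks of age. The high muscling group held 19 progeny of 3 sires with high estimated breeding values for eye muscle depth (sire 11 with 8 animals, sire 2 with 7 and sire 7 with 4), and the low muscling group 21 progeny of 3 sires with low values (sire 16 with 8 animals, sire 17 with 5 and sire 5 with 8). The muscling label is therefore that of the sire, the progeny of 1 sire share their father, and each sire belongs to 1 muscling group only. The labels give no treatment, sex, date or batch, and any difference between sires that is not related to muscling cannot be told apart from muscling with 3 sires a group. RNA of each animal was hybridised to 1 bovine array, so that the probes were designed on bovine and not ovine sequence, and the signals of 2 probe sets do not show which RNA was more abundant.

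IGF1 and IGF2 are small secreted growth factors. Both act through the receptor tyrosine kinase IGF1R, whereas IGF2R, which also sorts lysosomal enzymes, takes up IGF2 for degradation. The binding proteins hold IGFs in the circulation and in the tissue, and proteases that cleave them set the ligands free. In skeletal muscle, IGF1 made in the tissue and in the liver under the control of growth hormone promotes protein synthesis and the proliferation and differentiation of myoblasts.

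The median signal of an array lay between 56.1 and 67, and 2 arrays had a Pearson correlation of 0.902 to 0.963 over the detected genes. The mean of this median was 63.7 ± 2.3 (SD, n = 19) in high muscling arrays, against 61.4 ± 2.4 in low muscling arrays (n = 21). The log2 ratio of 3′ over 5′ GAPDH signal was 0.30 ± 0.09 against 0.23 ± 0.12. Of the sire families, that of sire 11 had the highest mean ratio (0.37 ± 0.06, n = 8). The same ratio for actin went the other way, with -0.04 ± 0.09 in high and -0.004 ± 0.09 in low muscling arrays. It was lowest in the family of sire 7 (-0.15 ± 0.06, n = 4). The muscle fibre markers were bright in every animal, for instance CKM at 25546 or more, and 0 of 7 differed between the muscling groups. Between high and low muscling, limma with sire as a random block called 145 genes higher and 350 lower at an adjusted p under 0.05, and the median log2 difference over all detected genes was -0.04. Array hybridisation controls were slightly brighter in the high muscling arrays, with a mean log2 signal of 11.12 ± 0.07 (SD, n = 19), against 11.02 ± 0.09 in the low muscling arrays (n = 21). With 3 sires a group, the number of sires limits the precision of the muscling comparison, and the number of arrays that of values within a family.

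Of the 6 detected members, 1 differed between high and low muscling. IGFBP6 was lower in high muscling animals, while IGF1, IGF2, IGF2R, IGFBP3 and IGFBP4 did not pass the test. Over all detected genes 2.28% were called higher and 5.5% lower, so that 1 member of 6 called lower is a count on which little can be read. The median log2 difference of the 6 members was -0.14.

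IGFBP6, a binding protein with a preference for IGF2, had signals of 529 (lowest), 786 (median) and 1023 (highest) in high muscling animals, against 681, 1055 and 1821 in low muscling animals. The signal of all 19 high muscling animals was below the median of the low muscling animals, and 13 of the 21 low muscling animals were above every high muscling animal. The groups still overlapped, since only 4 high muscling animals were below every low muscling animal. The mean was 801 ± 157 (SD, n = 19) in high muscling and 1164 ± 307 (SD, n = 21) in low muscling. The log2 difference, high minus low, was -0.50 (SE 0.15, 95% confidence interval -0.80 to -0.20), a 0.708-fold level, with an adjusted p of 0.0302 (limma).

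The sire families gave the same direction for IGFBP6. The means were 762, 846 and 802 in the progeny of the high muscling sires 11, 2 and 7, against 1284, 927 and 1190 in those of the low muscling sires 16, 17 and 5. Of the low muscling families, that of sire 17 came closest to the high muscling ones, with signals of 681, 785, 913, 999 and 1259. The 4 progeny of sire 7 had 536, 729, 963 and 981. All 3 high muscling means were below all 3 low muscling means, which held for 11.4% of the detected genes, and the exact permutation test over 3 against 3 sires gave p = 0.1, the smallest it allows. The call was lost without the progeny of sire 2, 7, 16 or 5 (adjusted p of 0.0688, 0.0673, 0.278 and 0.247), with sire means as samples (0.241) and with the hybridisation controls as a covariate (-0.40, adjusted p = 0.142), a setting chosen after the data were seen. The difference stayed between -0.61 and -0.40 in all 15 alternatives.

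**Figure D1:**
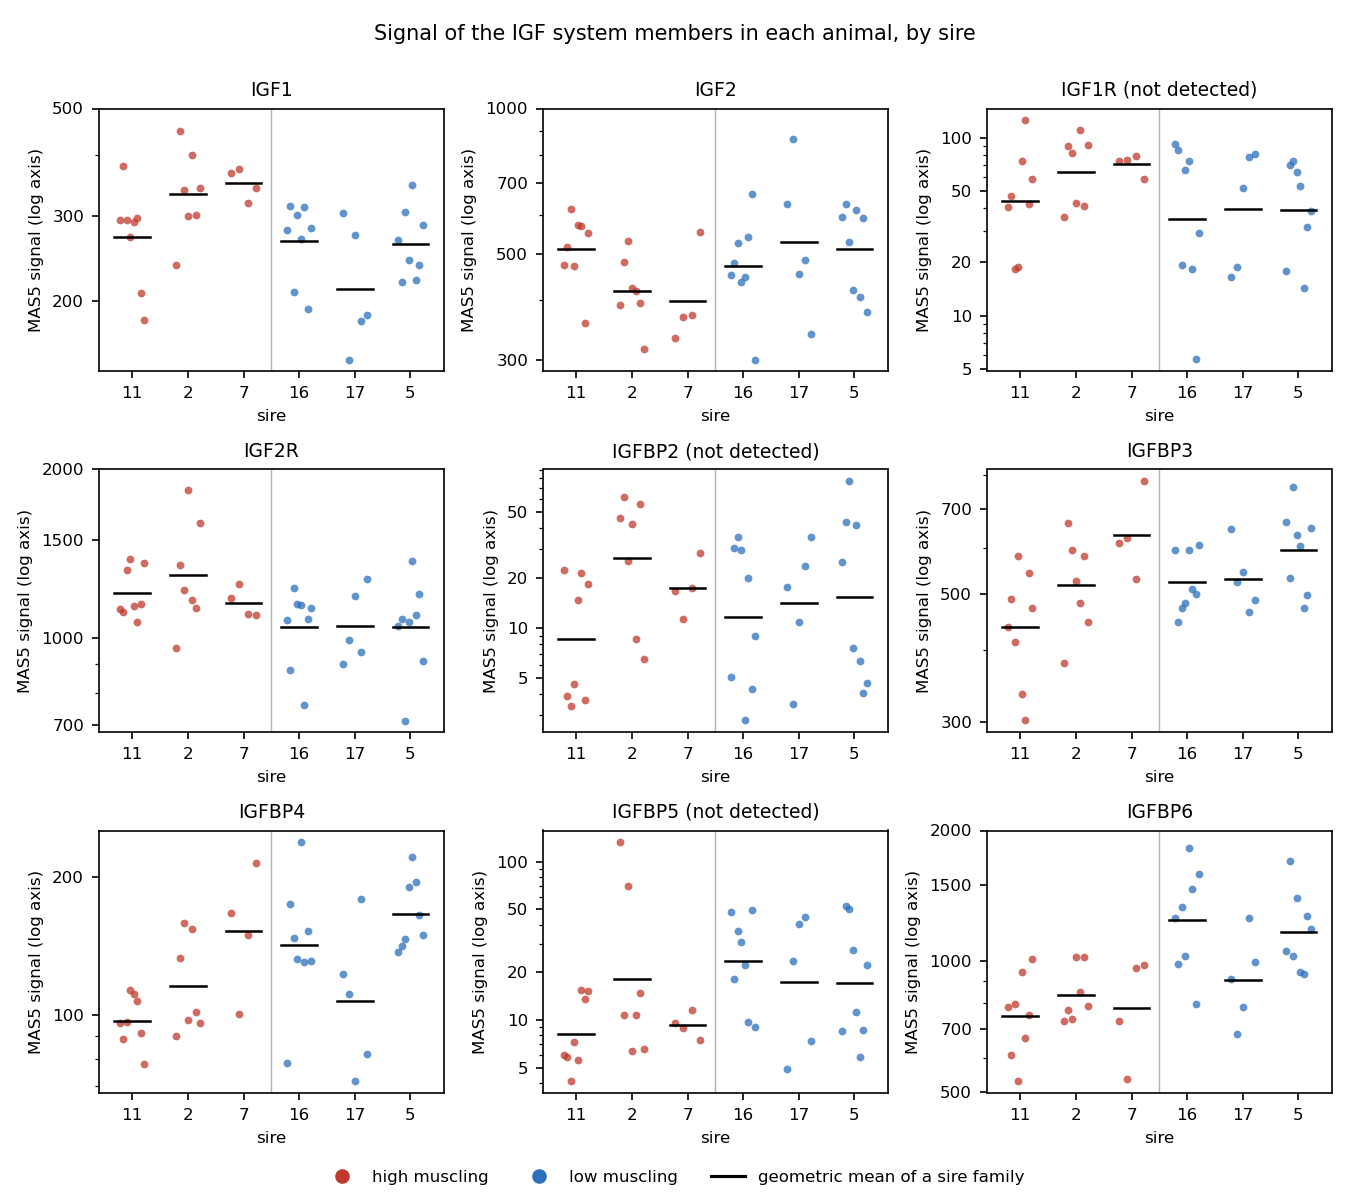
MAS5 signal (log axis) of the main probe set of each of the 9 members in every animal, by sire, with the high muscling sires 11, 2 and 7 (red) on the left and the low muscling sires 16, 17 and 5 (blue) on the right. Bars are geometric means of a sire family, and for IGFBP6 all 3 bars of the high muscling sires are below those of the low muscling sires.

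Of 8 fibroblast markers, all of them detected and none at 0 in any animal, 5 were called lower in high muscling animals and 0 higher, against 5.5% lower and 2.28% higher over all genes. The list was chosen with earlier results of these data known, so that the count is a description and no independent test. All 5 also lost their call together in alternatives given below, so that they cannot be counted as separate results. Those called lower were fibrillin FBN1 (-0.79, adjusted p = 0.0131), the collagens COL3A1 (-1.08, 0.0251), COL1A2 (-0.78, 0.0278) and COL1A1 (-0.83, 0.0343) and decorin DCN (-0.37, 0.0499). The other 3 did not pass, with -0.52 for lumican LUM (adjusted p = 0.0666), -0.18 for FAP (0.622) and 0.30 for PDGFRA (0.721). The summed signal of the 8 markers was 5505 to 13086 in high muscling animals (median 9461), against 8421 to 25118 in low muscling animals (median 14041). In bulk muscle, fewer cells of a type and less RNA per cell cannot be told apart, and the part of the fibroblast markers in the IGFBP6 difference was not tested. All 5 called markers lost their call without the progeny of sire 16 or sire 5, with sire means as samples and with the hybridisation controls as a covariate (adjusted p of 0.117 to 0.436). COL3A1 also lost it without sire 7, COL1A2 without sire 11 or 7, COL1A1 without sire 11 and with the mean over its probe sets (-0.34, adjusted p = 0.597), and DCN with quantile normalization, median centring or the signal floor and without sire 2 or 7.

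IGF1, the ligand of IGF1R, had signals of 183 (lowest), 302 (median) and 450 (highest) in high muscling animals, against 152, 268 and 348 in low muscling animals. The signal was above the low muscling median in 16 of 19 high muscling animals, and 5 high muscling animals were above every low muscling one. The log2 difference was 0.33 (SE 0.14, 95% confidence interval 0.05 to 0.60) and did not pass the test over all genes (adjusted p = 0.138, limma). The means were 278, 339 and 351 for sires 11, 2 and 7, against 271, 219.9 and 266 for sires 16, 17 and 5. The order placed sire 11 close to the low muscling sires 16 and 5, and without its progeny the difference was 0.44 and was called (adjusted p = 0.0224). Animals treated as independent, with no sire block, also gave a call (0.30, adjusted p = 0.0258), whereas the mean over all 4 probe sets gave 0.18 (adjusted p = 0.632).

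IGF2R, the receptor that clears IGF2, had signals of 962 (lowest), 1171 (median) and 1836 (highest) in high muscling animals, against 714, 1081 and 1372 in low muscling animals. In 17 of 19 high muscling animals the signal was above the low muscling median, and 3 were above every low muscling animal. The log2 difference was 0.22 (SE 0.11, 95% confidence interval 0.01 to 0.44) and did not pass the test (adjusted p = 0.203, limma). Family means were 1210, 1326 and 1159 for sires 11, 2 and 7, against 1058, 1061 and 1063 for sires 16, 17 and 5. Without the sire block it was called (0.23, adjusted p = 0.0215).

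For IGF1 and IGF2R all 3 high muscling sire means were above all 3 low muscling sire means, a pattern that 7.85% of the detected genes showed (p = 0.1 each by the exact permutation test over sires, its smallest value). The sire means of IGF2, IGFBP3 and IGFBP4 overlapped between the muscling groups.

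IGF2, the growth factor most prominent before birth, had signals of 317 (lowest), 470 (median) and 620 (highest) in high muscling animals, against 301, 486 and 865 in low muscling animals. The ranges overlapped almost wholly, with 4 low muscling animals above every high muscling one. The log2 difference was -0.17 (SE 0.14, 95% confidence interval -0.46 to 0.12, adjusted p = 0.538, limma).

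IGFBP3, the main carrier of IGFs in plasma, had signals of 303 (lowest), 527 (median) and 781 (highest) in high muscling animals, against 447, 533 and 764 in low muscling animals. The medians were close, but 5 high muscling animals were below every low muscling one. The log2 difference was -0.11 (SE 0.12, 95% confidence interval -0.35 to 0.14, adjusted p = 0.672, limma), and without the progeny of sire 11 it was 0.02. IGFBP4, which binds IGFs and is cleaved by the protease PAPPA, had signals of 78.2 (lowest), 101.5 (median) and 214 (highest) in high muscling animals, against 71.7, 147 and 238 in low muscling animals. In 14 of 19 high muscling animals the signal was below the low muscling median. The log2 difference was -0.26 (SE 0.17, 95% confidence interval -0.61 to 0.10, adjusted p = 0.423, limma).

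The 3 members that were not detected had mean signals of 55.0 (IGF1R), 21.3 (IGFBP2) and 22.4 (IGFBP5) over the 40 arrays. IGF1R carries the signal of both ligands into the cell, IGFBP2 is a carrier in plasma and tissue, and IGFBP5 is known in mouse muscle cells as a gene of differentiating myoblasts. In a fit without the detection filter, the log2 difference was 0.59 for IGF1R (SE 0.38, adjusted p = 0.438), 0.18 for IGFBP2 (SE 0.54, adjusted p = 0.916) and -0.79 for IGFBP5 (SE 0.46, adjusted p = 0.376). These standard errors were larger than those of the 6 detected members, which were 0.11 to 0.17, so that only a larger difference could have passed the test. Whether the probes bind ovine RNA of these genes well was not tested.

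**Figure D2:**
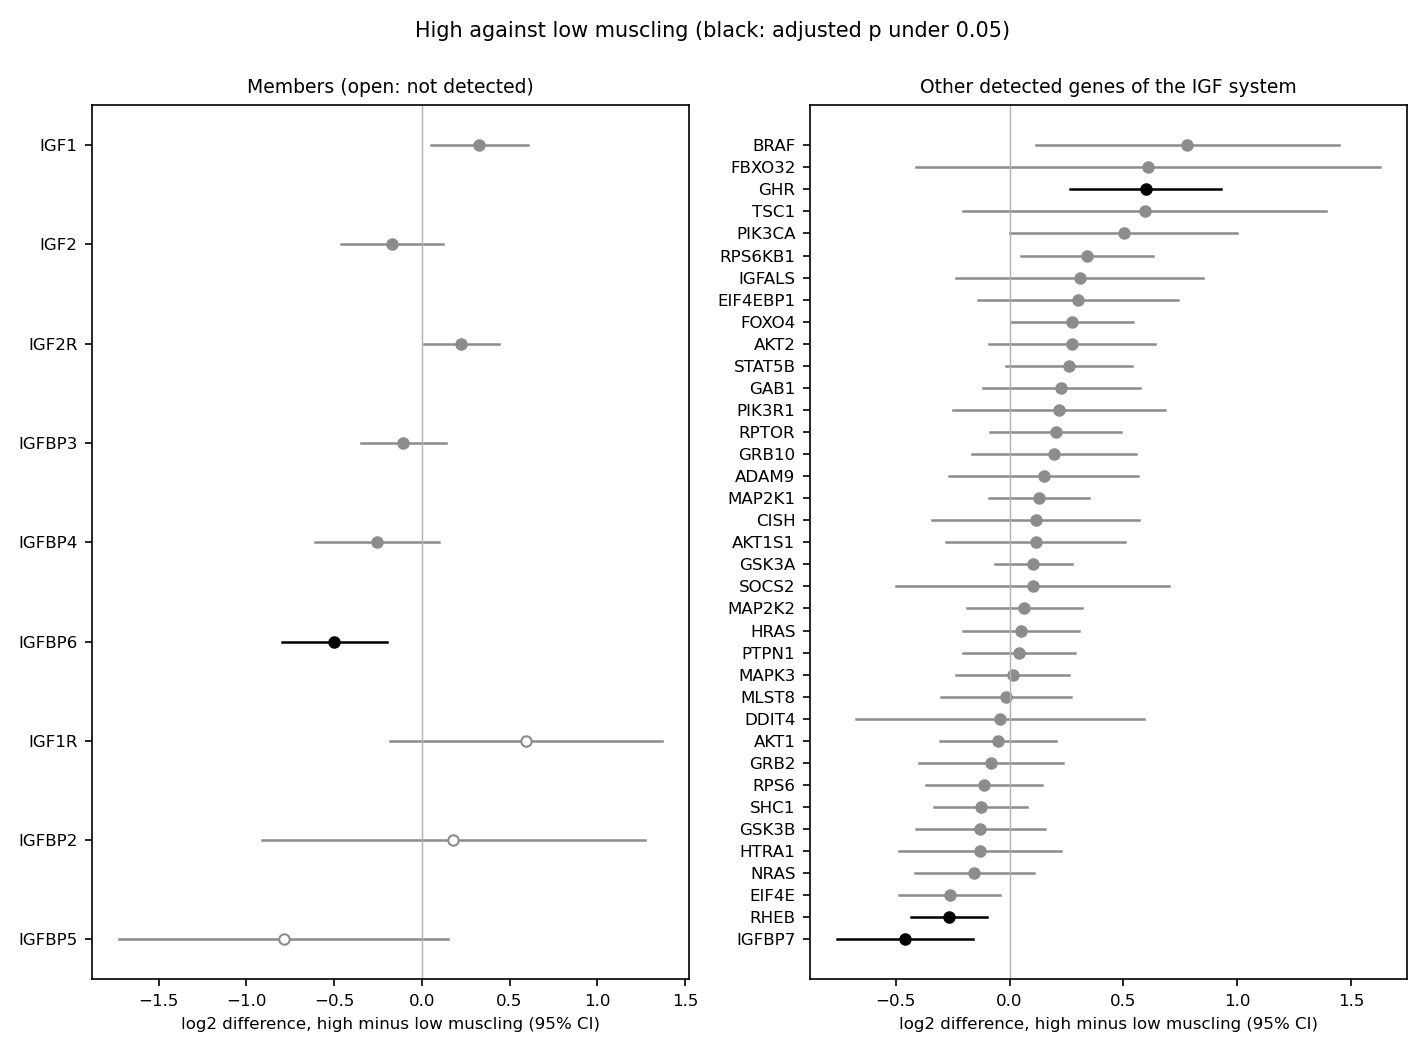
Log2 difference, high minus low muscling, with its 95% confidence interval (limma, sire as a random block) for the 9 members (left, open circles for the 3 not detected, from the fit without the filter) and for 37 other detected genes of the IGF system (right). Black marks an adjusted p under 0.05, reached by IGFBP6 on the left and by GHR, RHEB and IGFBP7 on the right.

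A separate question was whether members differed between sires of the same muscling group, a comparison that does not use the muscling contrast. By limma's moderated F test, IGFBP4 did so (F = 4.54, adjusted p = 0.0262), as did 22% of all detected genes, and the other 5 members did not pass. IGFBP3 was closest (F = 3.65, adjusted p = 0.0574), followed by IGF1 (2.54, 0.151), IGFBP6 (1.85, 0.274), IGF2 (1.38, 0.413) and IGF2R (0.35, 0.891). A share of 1 in 6 members is not above that of all genes. IGFBP4 was no longer called with median centring (adjusted p = 0.0595) or without the progeny of sire 11, 7, 17 or 5 (0.177, 0.0648, 0.0926 and 0.0790).

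IGFBP4 was low in the families of sires 11 and 17. In high muscling, the mean was 97.8 ± 12.1 (SD, n = 8) for sire 11, 119 ± 29.3 (n = 7) for sire 2 and 158 for sire 7, whose 4 progeny had 100.5, 149, 167 and 214. In low muscling, it was 148 ± 45.5 (n = 8) for sire 16, 113 ± 42.1 (n = 5) for sire 17 and 168 ± 30.5 (n = 8) for sire 5. The 5 progeny of sire 17 had 71.7, 82.2, 110.9, 123 and 179, against 137 to 221 in the 8 progeny of sire 5. Only 1 animal of sire 17 was therefore within the range of the sire 5 family.

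Of the 36 contrasts of a member between 2 sires of 1 muscling group, 2 were called. IGFBP4 was lower in the progeny of sire 17 than of sire 5 (-0.63 on the log2 scale, SE 0.20, adjusted p = 0.0372, limma). IGFBP3 was lower in the progeny of sire 11, with signals of 303 to 580, than in those of sire 7, with 530, 612, 624 and 781 (-0.53, SE 0.15, adjusted p = 0.0227). IGFBP4 had the same sign there but did not pass (-0.65, SE 0.22, adjusted p = 0.0510). Of all detected genes, 12% were called between sires 17 and 5, 10.6% between sires 11 and 7, 15.1% between sires 11 and 2, 9.76% between sires 16 and 17, 0.0314% between sires 16 and 5 and 0% between sires 2 and 7. The IGFBP4 contrast lost its call with median centring (adjusted p = 0.0645), without the detection filter (0.0578) and without the progeny of sire 11 (0.0671). The IGFBP3 contrast lost it with median centring (0.0513) and with the mean over both probe sets (-0.26, 0.378).

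The share of the variance of log2 signal that lay between sire families, muscling included, was 0.454 for IGFBP6, 0.375 for IGFBP4, 0.317 for IGF1, 0.283 for IGFBP3, 0.150 for IGF2R and 0.0729 for IGF2, with a median of 0.173 over all detected genes. Within a family the standard deviation on the log2 scale was 0.24 for IGF2R and 0.25 for IGFBP3, 0.29 to 0.33 for IGF1, IGF2 and IGFBP6, and 0.36 for IGFBP4. By its main probe set, IGF2R was thus the member that varied least within families. IGF2 was the one whose families were most alike relative to that variation. On the other IGF2R probe set, the standard deviation of log2 signal ranged from 0.33 (sire 5) to 0.52 (sire 17) in single families, so that the low value holds for the main probe set only.

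Probe sets with the same gene symbol were at most weakly correlated. Over the 15 pairs of probe sets of 1 member, Pearson's r over the 40 animals had a median of 0.08 and a range of -0.30 to 0.34. It was 0.18 for the 2 IGF2R probe sets, 0.13 for those of IGFBP3 and 0.001 for those of IGF1R. For IGF1, the r of the main probe set with the other 3 was 0.02, 0.08 and -0.30, and for IGF2 it was 0.08, 0.34 and 0.10. Of the 18 probe sets 11 were detected on their own mean. In the fit over the 7968 detected probe sets, of which 6.94% were called between high and low muscling, that of IGFBP6 was the only 1 of the 11 that was called. IGFBP6 and IGFBP4 each had only 1 probe set, so that their results could not be compared with those of another. The log2 differences of detected probe sets of 1 gene had the same sign, with 0.33, 0.46 and 0.29 for IGF1, 0.22 and 0.23 for IGF2R, -0.17 and -0.15 for IGF2 and -0.11 and -0.08 for IGFBP3, and none of these passed the test. The dimmest IGF1 probe set, not detected, went the other way, with a mean log2 signal of 4.28 in high and 4.63 in low muscling. For IGF2 the dimmest also went the other way (2.92 against 2.84), and the next dimmest went the same way (4.31 against 4.67).

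The second IGF2R probe set differed between sires, unlike the first. The 7 progeny of sire 2 had signals of 186.7 to 392.5, all of them above the 8 progeny of sire 11, with 78.8 to 179. The 4 progeny of sire 7 had 133, 134, 183 and 218. The low muscling families of sires 16, 17 and 5 had means of 151, 131 and 152. Its F was 8.04 (adjusted p = 0.00154, limma, over probe sets, of which 21.4% were called), against 0.34 (adjusted p = 0.895) for the first. IGFBP4 was the other member probe set called there (F = 4.52, adjusted p = 0.0273). With the mean over both probe sets standing for the gene, IGF2R was called between sires (F = 6.28, adjusted p = 0.00734).

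**Figure D3:**
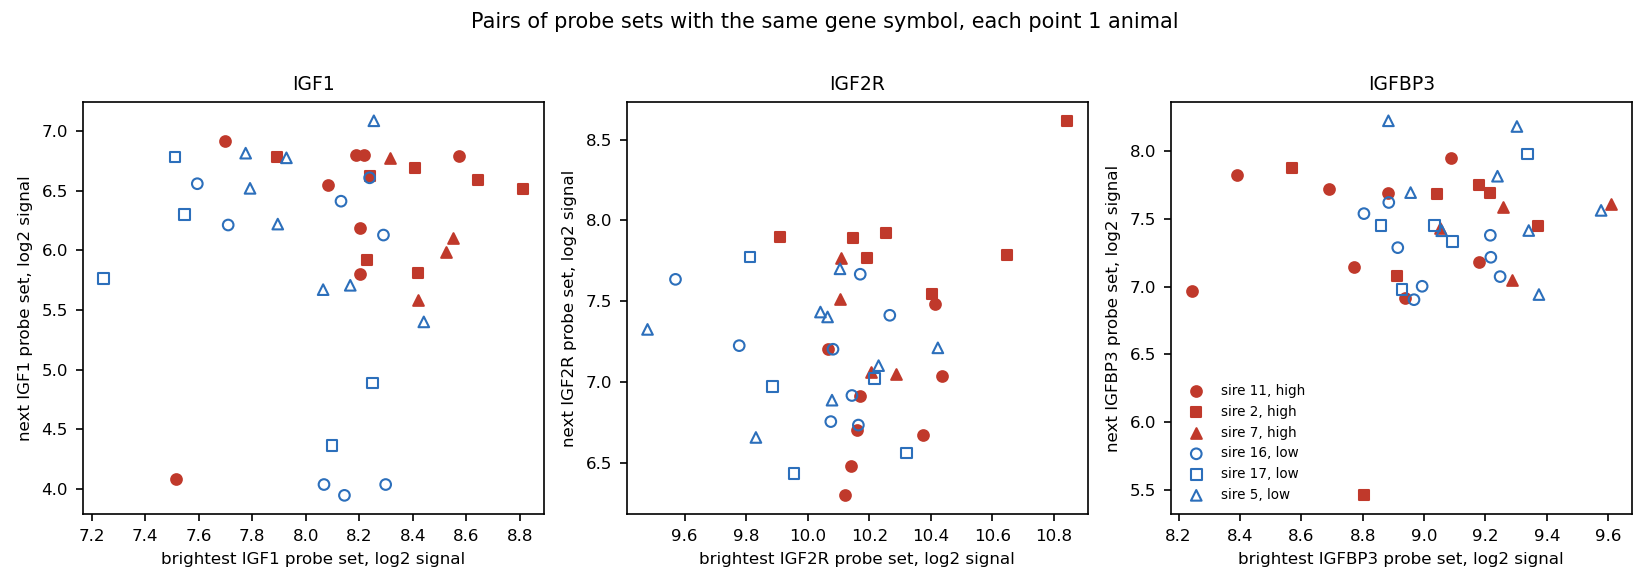
Log2 signal of the brightest probe set (horizontal axis) and of the next one (vertical axis) of IGF1, IGF2R and IGFBP3, each point 1 animal, with high muscling sires as filled red and low muscling sires as open blue symbols. No panel shows a clear relation (r of 0.02, 0.18 and 0.13), and the progeny of sire 2 (red squares) lie high on the second IGF2R probe set.

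Correlations between members from animal to animal were weak. Over the 15 pairs of detected members, 0 correlations passed the permutation test after Benjamini-Hochberg adjustment, and 2 had an unadjusted p under 0.05. The strongest was that of IGFBP4 with IGFBP6, with a Pearson r of 0.40 (permutation p = 0.00962, adjusted p = 0.144) and a Spearman rho of 0.35 (adjusted permutation p = 0.337). Without the 2 animals farthest from the median it was 0.31, and with the mean of each sire removed 0.13. IGFBP3 with IGFBP4 had r = 0.33 (permutation p = 0.0366, adjusted p = 0.275) and rho = 0.29 (permutation p = 0.0704, adjusted p = 0.337), and 0.33 without the 2 farthest animals. Removal of sire means left 0.0009 of this r. The most negative r was -0.25, between the ligands IGF1 and IGF2 (permutation p = 0.115, adjusted p = 0.325), with rho = -0.16 (permutation p = 0.328, adjusted p = 0.491), -0.10 without the 2 farthest animals and -0.03 with sire means removed.

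**Figure D4:**
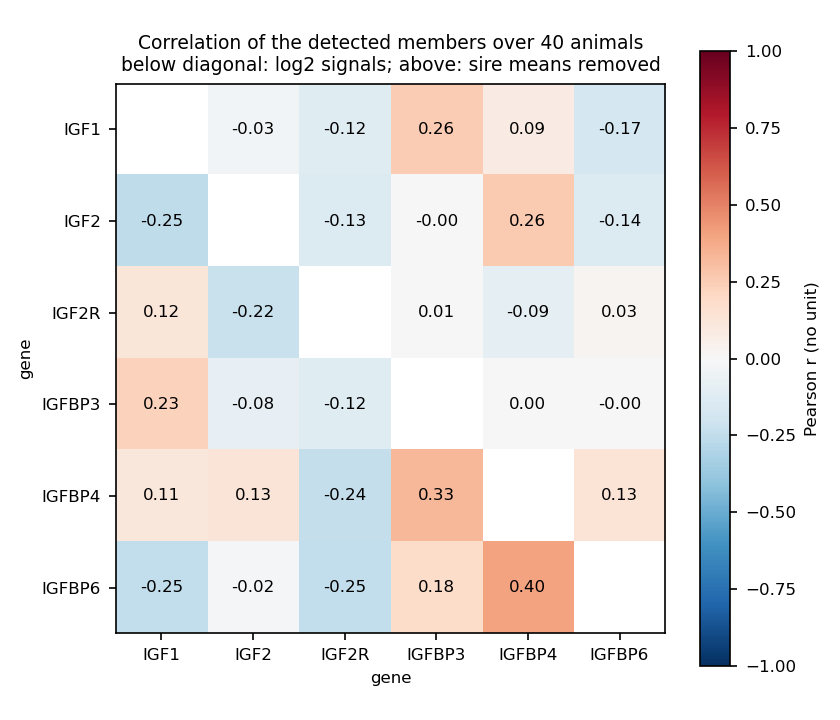
Pearson r between the log2 signals of the 6 detected members over 40 animals, below the diagonal as measured and above it with the mean of each sire removed. The highest value below the diagonal is 0.40 (IGFBP4 with IGFBP6), and its counterpart above the diagonal is 0.13.

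The members were also set against marker lists of cell types and against array measures, 72 pairs in all, with 100000 permutations of the animals and adjustment over the 72. IGFBP6 followed the fibroblast markers, with r = 0.76 (adjusted permutation p = 0.00072, from the smallest p that the permutations can give) and rho = 0.68 (adjusted permutation p = 0.00072). The r was 0.68 without the 2 animals farthest from the median and 0.57 with sire means removed (adjusted p = 0.0418, permutations within sires). IGFBP6 was also correlated with the markers of leukocytes (r = 0.58, adjusted permutation p = 0.00216, rho = 0.58, adjusted p = 0.00432, 0.56 without the 2 animals, 0.24 with sire means removed) and of smooth muscle and pericytes (0.52, 0.0126, rho = 0.49, 0.0257, 0.50 and 0.26). Neither of these passed within sires (adjusted p = 0.453 both). Its r with the hybridisation controls was -0.50 (adjusted permutation p = 0.0126, rho = -0.55, adjusted p = 0.00528), -0.56 without the 2 animals and -0.23 with sire means removed (adjusted p = 0.504), and with the plasma proteins 0.44 (adjusted permutation p = 0.0459, rho = 0.41, adjusted p = 0.0701, 0.40 without the 2 animals), which was 0.31 within sires (adjusted p = 0.412). Between high and low muscling, 0 of 4 detected leukocyte markers were called (summed signal 523 to 876 in high muscling, against 550 to 1374 in low muscling). CSF1R (-0.87), CD68 (-0.37), CD14 (-0.31) and CD3E (-0.22) were all lower, and none of them passed. For endothelium, whose r with IGFBP6 was 0.35 and did not pass (adjusted permutation p = 0.154), 0 of 5 were called. PECAM1 (-0.30), EMCN (-0.28), TEK (-0.28) and CDH5 (-0.13) were lower and VWF (0.24) higher. For smooth muscle 1 of 5 was called (TAGLN, -0.48, adjusted p = 0.0135, limma), with sums of 3936 to 6536 in high muscling and 4137 to 7908 in low muscling. CNN1 (-0.53) and ACTA2 (-0.20) were lower and MYH11 (0.07) and RGS5 (0.11) higher, and none of them passed. For the plasma proteins 1 of 4 was called (haptoglobin HP, -1.90, adjusted p = 0.0292), with sums of 1133 to 1855 in high muscling and 1378 to 2468 in low muscling. APOA1 (0.39) and ALB (0.02) were higher and TF (-0.03) lower, and none of them passed. Over all detected genes 5.5% were called lower, so that 1 gene of a list is a count on which little can be read. The calls of TAGLN and HP were not examined in the alternatives. The part of these markers in the IGFBP6 difference was not tested.

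IGFBP3 followed the adipocyte markers, with r = 0.50 (adjusted permutation p = 0.0174). Spearman's rho was 0.41 and did not pass (adjusted permutation p = 0.0701), r without the 2 farthest animals was 0.39, and with sire means removed it was 0.44 (adjusted p = 0.129, permutations within sires). The summed signal of the adipocyte markers was 575 to 5432 in high muscling animals (median 1013), against 779 to 7514 in low muscling animals (median 1382), with 0 of 5 detected markers called. IGF1 was correlated with the median signal of the array, which was 59.8 to 66.95 in high muscling and 56.1 to 67 in low muscling (r = 0.45, adjusted permutation p = 0.0459, rho = 0.45, adjusted p = 0.0569, 0.43 without the 2 animals, 0.25 with sire means removed). For IGF1 this rho did not pass, nor did the r with sire means removed (adjusted p = 0.4525, permutations within sires). Its r with the muscle fibre markers was 0.43 and did not pass (adjusted permutation p = 0.0592, rho = 0.44, adjusted p = 0.0615, 0.34 without the 2 animals, 0.39 with sire means removed). IGF2, IGF2R and IGFBP4 had no correlation that passed with any of the 12 measures. For IGFBP4 the r with the fibroblast markers was 0.39 (adjusted permutation p = 0.0853, rho = 0.43, adjusted p = 0.0615, 0.11 with sire means removed). Progeny of 1 sire are not independent, so that the p-values over all animals are smaller than independent animals would give.

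**Figure D5:**
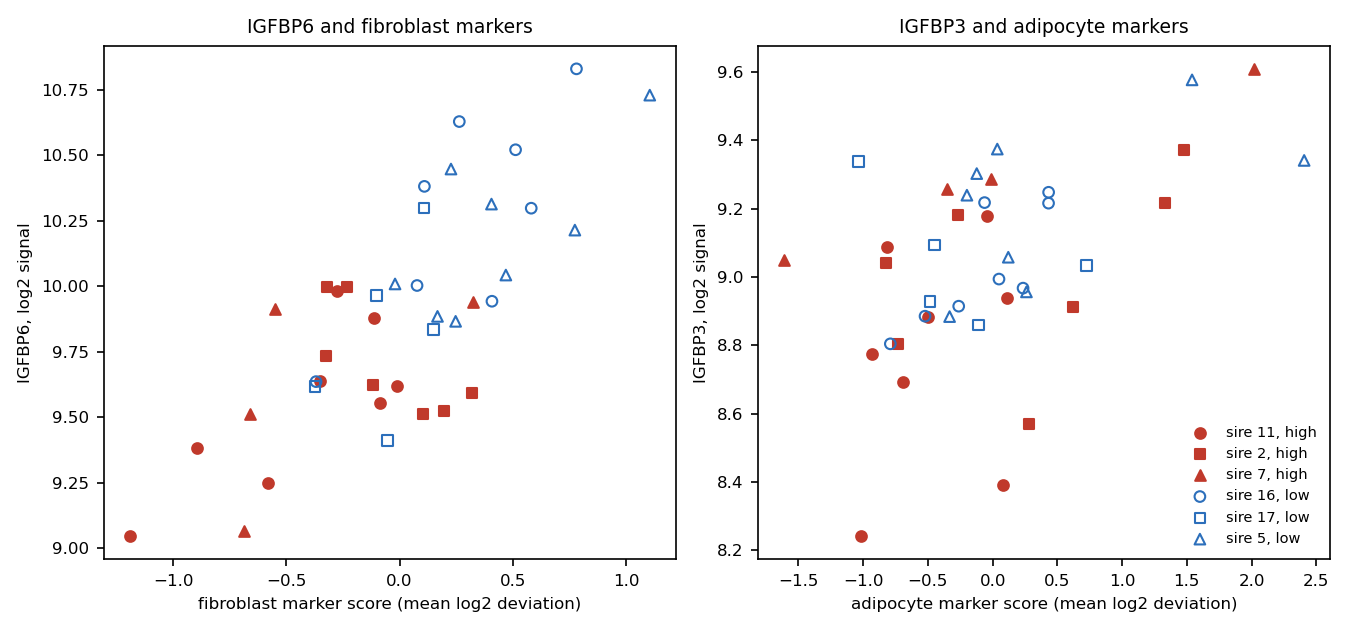
Log2 signal of IGFBP6 against the fibroblast marker score (left) and of IGFBP3 against the adipocyte marker score (right), each point 1 animal, with high muscling sires as filled red and low muscling sires as open blue symbols. A score is the mean over the detected markers of the log2 signal minus the mean of the gene, and r is 0.76 on the left and 0.50 on the right.

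The genes most like each member were taken by Pearson's r over the 40 animals among the 6359 other detected genes, as a description. Such genes were the extremes of 6359 values for the main probe set of a member, and no r was tested. For IGFBP6 these were RAMP2, which escorts the receptors of adrenomedullin to the cell surface (r = 0.84), FBN1, the main protein of extracellular microfibrils (0.84), and ANXA2, a membrane-binding annexin (0.79). With sire means removed, their r was 0.68, 0.73 and 0.57. FBN1 is also 1 of the fibroblast markers. The most opposed genes were DCAF6, an adaptor of ubiquitin ligases (-0.77), and CREBBP, a histone acetyltransferase (-0.77). Signals of RAMP2 were 300 to 929 in high muscling animals (median 506), against 468 to 1226 in low muscling animals (median 849). RAMP2 was chosen by its r with IGFBP6 over the same animals, so that its levels are no separate test of the IGFBP6 difference.

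For IGF2R the most similar genes were PSME4, a proteasome activator (r = 0.71), RAD23B, which carries ubiquitinated proteins to the proteasome (0.59), and FBXO32, the muscle ubiquitin ligase atrogin-1 (0.57), at 0.64, 0.51 and 0.66 with sire means removed. ATP5MC1, a subunit of the mitochondrial ATP synthase (-0.62), and EXOSC4, of the RNA exosome (-0.57), were the most opposed. For IGFBP3 they were the mitochondrial ferredoxin FDX1 (0.68), PPARG, the regulator of fat cell differentiation (0.64), and the vesicle transport factor TRAPPC1 (0.64), against the topoisomerase TOP2B (-0.62) and the ubiquitin ligase UBR3 (-0.60). FDX1 had 0.72 with sire means removed, and PPARG 0.50.

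For IGFBP4 the highest values were those of ERP29, a protein of the endoplasmic reticulum (0.69), the matrix protease MMP2 (0.65) and the complement subunit C1QB (0.63), and the lowest those of the kinesin KIF5B (-0.61) and the kinase DYRK1A (-0.61). With sire means removed, the IGFBP4 values were 0.39, 0.38, 0.47, -0.26 and -0.20. The ligands had no gene above 0.64. IGF1 was most like GCDH, an enzyme of lysine breakdown (0.63), ZFAND3 (0.63) and CORO6 (0.62) and most opposed to STT3A, of the oligosaccharyltransferase (-0.62), and TTC27 (-0.62). IGF2 was most like the splicing factors RBM39 (0.59) and U2SURP (0.55) and NDEL1 (0.56), and most opposed to the peroxisomal protease LONP2 (-0.58) and to ING2 (-0.57).

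Of 74 other genes of the IGF system, from growth hormone to the kinases downstream of the receptor, 47 were on the array and 37 were detected. Between high and low muscling 1 was called higher, 2 were called lower and 34 did not pass, against 2.28% higher and 5.5% lower over all genes. Their median log2 difference was 0.11, against -0.04 over all detected genes.

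GHR, the growth hormone receptor, was higher in high muscling animals. Its signals were 819 (lowest), 1271 (median) and 2096 (highest), against 633, 824 and 1722 in low muscling animals. The family means were 1353, 1400 and 1183 for sires 11, 2 and 7, against 803, 834 and 982 for sires 16, 17 and 5, with no overlap. By log2 means, 7.85% of the detected genes had all 3 high muscling sires above all 3 low muscling sires. The log2 difference was 0.60 (SE 0.16, adjusted p = 0.0182, limma), and it lost its call without the progeny of sire 2, 16 or 5 (adjusted p of 0.115, 0.231 and 0.0632), with sire means as samples (0.186), with the mean over its probe sets (0.30, 0.231) and with the hybridisation controls as a covariate (0.44, 0.128). The other detected genes of the growth hormone axis, the transcription factor STAT5B (0.26) and the feedback inhibitors CISH (0.11) and SOCS2 (0.10), did not pass.

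RHEB, the small GTPase that activates mTOR, and IGFBP7, a secreted protein of low IGF affinity, were lower in high muscling animals. RHEB had 3371 (lowest), 3919 (median) and 4680 (highest), against 3706, 5065 and 5905 in low muscling animals (-0.27, SE 0.08, adjusted p = 0.0402, limma). IGFBP7 had 1346, 2324 and 3050, against 1622, 3362 and 4802 (-0.46, SE 0.15, adjusted p = 0.0462). Both lost their call with quantile normalization (adjusted p of 0.200 and 0.0824), with median centring (0.0626 and 0.0504), with sire means as samples (0.422 and 0.462), with the hybridisation controls as a covariate (0.150 and 0.0719) and without the progeny of sire 7, 16 or 5 (0.0615 to 0.438). RHEB also lost it without sire 2 (0.0974), and IGFBP7 with the GAPDH ratio as a covariate (0.0746). Without the progeny of sire 11 the IGFBP7 difference was -0.21 (adjusted p = 0.361), and its mean in that family was 1603, against 2685 and 2388 in those of sires 2 and 7.

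Between sires of the same muscling group, 11 of the 37 genes were called, against 22% of all genes. The 10 with the smallest p were RPS6KB1 (F = 22.3, adjusted p = 6.1e-07), BRAF (15.4, 1.8e-05), MAP2K2 (13.1, 5.9e-05), IGFBP7 (11.8, 0.000129), ADAM9 (7.92, 0.00169), MAPK3 (7.68, 0.00198), PTPN1 (5.11, 0.0160), HTRA1 (4.64, 0.0240), EIF4E (4.47, 0.0275) and GSK3B (4.35, 0.0305), by limma's F test. RPS6KB1, the S6 kinase that promotes translation, had means of 787, 473 and 448 in the families of sires 11, 2 and 7 and of 387, 632 and 401 in those of sires 16, 17 and 5. BRAF, a kinase of the MAPK pathway, had 176, 65.1 and 66.2, and 46.3, 145 and 39.8. MAP2K2, a kinase that BRAF activates, had 881, 1404 and 1387, and 1242, 955 and 1185. Sires 11 and 17 were thus the highest of their muscling group for RPS6KB1 and BRAF and the lowest for MAP2K2, as they were for IGFBP4. These kinases were chosen by their small p between sires, and the split was not particular to them. Contrasts of sire 11 or 17 with another sire of the group called 9.76% to 15.1% of all detected genes. Between sires 2 and 7 the share was 0%, and between sires 16 and 5 it was 0.0314%. Without the progeny of sire 11, MAP2K2, IGFBP7, ADAM9, MAPK3, PTPN1, HTRA1, EIF4E and GSK3B were no longer called, with adjusted p of 0.0727 to 0.764, and 407 of all genes were. RPS6KB1 and BRAF were called in all 13 alternatives, and IGFBP7, MAP2K2 and MAPK3 in 12. ADAM9 also lost its call with the mean over its probe sets (0.151), PTPN1 without sire 17 (0.0837), HTRA1 with median centring (0.0524) and EIF4E without sire 7 or 5 (0.0830 and 0.0839). GSK3B was called in 7 of the 13, and besides sire 11 lost its call without sire 2 (0.115) and with quantile normalization, median centring, the mean over its probe sets and the GAPDH ratio (0.0506 to 0.0916).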

How the data were processed

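The values deposited by the authors were MAS5 signals of the GeneChip Bovine Genome array, that is, an intensity for each probe set and animal that had not been log transformed. The MAS5 version is not given in the sources used here. In each array the mean of the values, with 2% trimmed at each end, was 200.1. There were 0 unused value columns and no columns of the authors' own comparisons. Symbols came from the platform annotation that accompanies the arrays, in which 13292 probe sets had 1 symbol, 86 several and 10638 none, and only the first were named. The study's own probe annotation was not used here. Names of neighbouring genes came from the ovine RefSeq annotation.

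Signals were log2 transformed without further normalization. The muscling groups were tested in R 4.3.3 with limma 3.58.1, in which the sire entered as a random block (correlation within sires 0.135), over the 6360 detected genes. Sires within muscling groups were compared by a moderated F test in a fit of 6 sire means. P-values were adjusted by Benjamini-Hochberg over all genes tested. Correlations used Python 3.11.15, numpy 2.4.6, pandas 2.3.3 and scipy 1.17.1, with two-sided permutation tests. The functions were tested on simulated data. The members and lists were chosen with earlier results of these data known. Named genes were all members, the 3 most similar and 2 most opposed genes of each, and the called genes of the IGF system list (of more than 10, those with the smallest p). Marker genes that were called, and the values of RAMP2, were added after they had been seen. Alternatives were median centring, quantile normalization, no detection filter, a signal floor at the 20th percentile, all probe sets of a gene averaged, the 3′ over 5′ ratio of GAPDH as a covariate, no sire block, sire means as samples, each sire family left out and, added after seeing the data, the hybridisation controls as a covariate.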

Additional observations from a re-analysis of the deposited data

How the results depend on the processing

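Between high and low muscling, 495 genes and 1 member were called, and the counts depended on how sires were treated. With no sire block, 1586 genes and 3 members were called. With sire means as samples, limma called 0 genes and 0 members, with 886 genes and 2 members at an unadjusted p under 0.05. With the hybridisation controls as a covariate, chosen after seeing the data, 308 genes and 0 members were called (1245 and 2 unadjusted). Leaving out a sire family gave 23 genes (without sire 5) to 1221 genes (without sire 17), with 29 without sire 16, 272 without sire 7, 290 without sire 2 and 685 without sire 11, and 0 to 2 members. Between sires, 1402 genes and 1 member were called. Leaving out a family gave 407 (sire 11) to 1389 genes, with 846 without sire 17, and 0 to 2 members. IGFBP4 was not called with median centring (0 members, adjusted p = 0.0595, 2 at an unadjusted p under 0.05), and 2 members were called with the mean over all probe sets. Without the progeny of sire 2, IGFBP3 was called too (adjusted p = 0.0392), and without those of sire 11, 7, 17 or 5 IGFBP4 was not (0.177, 0.0648, 0.0926 and 0.0790).

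IGF1, IGF2, IGF2R, IGFBP4 and IGFBP6 kept the direction of their high against low difference in all 15 alternatives. IGFBP3 did not, and was called in none. The 0 called pairs of members stayed 0 in all 12 alternatives for the correlations. No paired analysis was possible because the animals carry progeny numbers of their own and the groups share no number. Mean signals below the detection threshold limit IGF1R, IGFBP2 and IGFBP5, and 3 sires a group limit every muscling comparison.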

Other observations

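Among the members that were not detected, IGFBP5 had signals of 70.4 and 132.5 in 2 progeny of sire 2, and 52.4 or less in the other 38 animals. IGFBP2 was highest at 76.7 in 1 progeny of sire 5 and next at 61.9 and 55.8 in 2 progeny of sire 2. In the ovine annotation, IGFBP2 and IGFBP5 are neighbouring coding genes, as are IGFBP3 and IGFBP1 and also IGF2 and INS. IGFBP1 was on the array with a mean signal of 12.1 and was not detected. Among the 54 combinations of a member and a sire family, 0 had an animal that stood apart by Dixon's test.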
